A study of Mus musculus with 4 samples.

Results

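Collagen genes encode the chains of the triple-helical proteins that make up much of the extracellular matrix of the lung. The 41 genes described here are all features whose symbol reads Col, a number, the letter a and a number, without Col6a1, Col6a2 and Col6a3. The matrices list 28006 features, of which 44 have such a symbol. Col6a4, Col6a5 and Col6a6 are kept by this rule, which uses symbols and no measured value. By structure the 41 genes comprise 11 fibrillar collagens, 9 fibril-associated collagens, 6 chains of the basement membrane collagen IV, 4 transmembrane collagens, 3 short-chain network collagens, 2 multiplexins, collagen VII and 5 other chains.

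Single-cell RNA was counted in lung adenocarcinomas of mixed 129/B6 mice, with 1 library in each of 4 groups. All mice carried KrasFSF-G12D, p53frt and Rosa-FSF-CreERT2, and tumours were started with Ad5-mSPC-FlpO, an adenovirus in which the promoter of surfactant protein C drives Flp, so that recombination began in cells where that promoter is active. KP mice were Foxa1flox/+ and Foxa2flox/+, and KPF1F2 mice were labelled Foxa1flox and Foxa2flox. Every group received tamoxifen at 120 mg/kg in 4 daily injections in week 10, and tumours were taken in week 12. KP pre-depletion and KPF1F2 pre-depletion cells were loaded after dissociation, and KP post-depletion and KPF1F2 post-depletion cells after magnetic removal of cells that carry CD45 (leukocytes) or CD31 (endothelium). The series asks what the transcription factors Foxa1 and Foxa2 do in these tumours. Ages are not in the labels, which also do not say which mice, or how many, went into a library. The title of the KPF1F2 pre-depletion library begins with another number than the other 3, so the post-depletion pair is the main comparison.

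Fibrillar collagens are secreted mainly by mesenchymal cells and assemble into the fibres that give tissue its tensile strength, and fibril-associated collagens bind to the surface of those fibres. Collagen IV chains form the sheet that underlies epithelium and surrounds capillaries. The chains encoded by Col4a1 and Col4a2 are present in nearly all basement membranes, while those encoded by Col4a3, Col4a4 and Col4a5 form a separate network known from the glomerulus, the cochlea and the alveolus.

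The 6 collagen IV genes lie in head-to-head pairs, which is why their promoters are shown, apart from that of Col4a3, which had no window. Col4a1 (chromosome 8, 11198423 to 11312826, minus strand) and Col4a2 (chromosome 8, 11312805 to 11449287, plus strand) overlap by 22 bases at their starts. Col4a4 (chromosome 1, 82448423 to 82586849, minus strand) and Col4a3 (chromosome 1, 82586921 to 82722059, plus strand) lie 71 bases apart. Col4a6 (chromosome X, 141165403 to 141474076, minus strand) and Col4a5 (chromosome X, 141475385 to 141689234, plus strand) lie 1308 bases apart. RefSeq windows on GRCm38.p6, from 250 bases before to 50 bases after a start, were matched for 32 of the 41 genes. The windows below run 5′ to 3′ on the gene's own strand, at chr8:11312777-11313076 (minus) for Col4a1, chr8:11312555-11312854 (plus) for Col4a2, chr1:82586800-82587099 (minus) for Col4a4, chrX:141475169-141475468 (plus) for Col4a5 and chrX:141474027-141474326 (minus) for Col4a6. Capitals mark the CCAAT box, the GC box with the letters GGGCGG and the TATA box with the letters TATAAA, each searched on both strands, so that a box on the other strand appears as its reverse complement.
Col4a1: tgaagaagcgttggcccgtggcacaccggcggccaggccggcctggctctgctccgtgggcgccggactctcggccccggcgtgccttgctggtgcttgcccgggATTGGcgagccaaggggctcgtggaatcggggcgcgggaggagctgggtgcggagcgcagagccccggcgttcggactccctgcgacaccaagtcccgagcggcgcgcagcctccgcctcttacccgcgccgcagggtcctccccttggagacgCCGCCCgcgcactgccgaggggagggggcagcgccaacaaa
Col4a2: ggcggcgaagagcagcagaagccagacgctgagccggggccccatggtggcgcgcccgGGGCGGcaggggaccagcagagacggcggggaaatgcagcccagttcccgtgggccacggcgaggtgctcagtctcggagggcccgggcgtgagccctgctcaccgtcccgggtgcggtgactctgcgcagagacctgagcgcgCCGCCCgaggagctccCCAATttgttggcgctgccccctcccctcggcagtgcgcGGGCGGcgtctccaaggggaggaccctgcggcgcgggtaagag
Col4a4: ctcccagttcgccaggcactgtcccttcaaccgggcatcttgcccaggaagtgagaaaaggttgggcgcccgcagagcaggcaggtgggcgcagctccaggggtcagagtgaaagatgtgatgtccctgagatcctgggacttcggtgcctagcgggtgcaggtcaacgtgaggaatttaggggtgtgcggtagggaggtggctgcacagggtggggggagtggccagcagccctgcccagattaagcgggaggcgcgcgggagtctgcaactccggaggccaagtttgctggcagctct
Col4a5: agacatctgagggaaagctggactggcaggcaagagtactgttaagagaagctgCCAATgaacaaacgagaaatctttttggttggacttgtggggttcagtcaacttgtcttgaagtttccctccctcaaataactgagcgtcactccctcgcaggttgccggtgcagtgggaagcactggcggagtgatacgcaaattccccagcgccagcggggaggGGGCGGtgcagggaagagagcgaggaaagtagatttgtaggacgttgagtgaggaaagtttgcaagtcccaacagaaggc
Col4a6: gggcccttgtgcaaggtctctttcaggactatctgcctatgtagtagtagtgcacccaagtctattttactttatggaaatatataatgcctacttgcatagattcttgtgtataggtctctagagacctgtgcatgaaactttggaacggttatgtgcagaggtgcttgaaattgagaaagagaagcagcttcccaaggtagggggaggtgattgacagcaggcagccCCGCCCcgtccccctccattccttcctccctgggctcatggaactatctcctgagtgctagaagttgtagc

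The Col4a1 and Col4a2 windows share 78 bases, and the GC box of the former is the last marked box of the latter, read on the other strand, while their CCAAT boxes lie at different places. These windows hold 37 and 33 CpG dinucleotides and 74% and 73.7% G or C, against 14 CpG and 63.3% for Col4a4, 11 and 52.7% for Col4a5, and 3 and 48.3% for Col4a6. The starts shown therefore differ in base composition, from the CpG-rich Col4a1 and Col4a2 starts to the CpG-poor start of Col4a6. Col4a4 alone stands for its pair with Col4a3. A GC box was found in 21 of the 32 windows, against 35.7% of all 32851 windows of the same length. A CCAAT box was found for 13 genes (37.4% of all windows) and a TATA box for 5 (13.6%). The forkhead core TGTTTAC was found for 0 of the 32 genes on either strand, against 3.65% of all windows. The NKX core CACTTG was found for 6 genes, against 13.6% of all windows. A window without these letters says nothing of binding, and a match is not a site.

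The libraries held 4415 to 8536 barcodes and 47805086 to 63010016 UMIs (unique molecular identifiers, each standing for 1 captured RNA molecule), and any pair of libraries shared 6 to 16 barcodes. After filters 2476 to 3616 cells a library remained, with median depths of 7084 to 16410 UMIs. Cells were clustered with the collagen genes left out of the genes used, so that collagen levels do not shape the classes, and clusters were named from fixed markers. The fibroblast-like class held 22, 92, 61 and 415 cells in KP pre-depletion, KPF1F2 pre-depletion, KP post-depletion and KPF1F2 post-depletion, in that order. The mural-like class (pericytes and smooth muscle) held 7, 7, 40 and 8, the mesothelial-like class 0, 11, 13 and 83, the endothelial-like class 128, 82, 0 and 0, and the epithelial-like class 680, 192, 2647 and 1944. Of the markers used for naming, 11 of 12 fibroblast ones were highest in that class. All 12 mural, 9 mesothelial, 12 endothelial and 10 epithelial ones were highest in theirs. Because the same markers gave the names, these counts do not test the names. Levels are CPM, in which a gene's UMIs in a class and library are set against 1000000 UMIs of that class, and are given for classes with 20 cells or more. Mural levels therefore come from KP post-depletion alone and mesothelial levels from KPF1F2 post-depletion alone. UMIs of a 3′ library count molecules, so CPM of different genes were compared without a correction for length. With 1 library a group there is no replicate error and no test, every difference is between libraries, and intervals (95%, exact) cover counting error only.

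The targeted genes were read first. The features that carry the plain symbols Foxa1 and Foxa2 had 0 UMIs in epithelial cells of every library, where an added feature Foxa1_2 had 16.7 CPM in KP pre-depletion and 16.6 in KP post-depletion, against 10.8 and 3.60 in KPF1F2. A further added feature, Foxa1_1, went the other way after depletion, with 2.66 CPM in KP and 7.97 in KPF1F2. Foxa2_1 had 0 to 8 UMIs a library. How much of a gene each added feature covers is not in the files, so the loss of Foxa2 could not be read from them.

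All collagen genes described here together took 1.36 to 1.95% of fibroblast UMIs and 2.52% of mural UMIs. Their share was 0.204% in mesothelial cells, 0.502% and 0.214% in KP and KPF1F2 endothelial cells, and 0.0515 to 0.0783% in epithelial cells. The 16 leukocyte class-libraries with 20 cells or more lay between 0.00125% and 0.00599%. The share was thus highest in mural cells and fibroblasts, and that of every epithelial library lay above that of every leukocyte class. In fibroblasts and mural cells 1.14 to 2.13% of all UMIs came from fibrillar collagens, while collagen IV took most of the epithelial and endothelial share, with 0.0345 to 0.062% and 0.196 to 0.464%.

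Of the 41 genes, 25 reached 20 CPM as a class mean in at least 1 of the 5 classes. The other 16 stayed lower in every class, with highest means from 0 to 12.9 CPM, the upper value being Col6a6 in mesothelial cells. Among them were Col2a1 and Col9a1, fibrillar and fibril-associated collagens of cartilage, with 2 and 0 UMIs in all kept cells, although every one of the 41 had a UMI in some barcode. The class with the highest mean was mural for 14 of the 25 genes (20.3% of all 8861 genes that reached 20 CPM), fibroblast for 5 (12.6%), mesothelial for 3 (20.2%), endothelial for 2 (30.3%) and epithelial for 1 (16.6%). At least 4-fold above the next class were Col11a1, Col10a1, Col7a1 and Col8a1 in mural cells (0.813% of all genes) and Col13a1 and Col23a1 in fibroblasts (1.46%). No member led by as much in mesothelial, endothelial or epithelial cells, where 1.99%, 3.55% and 3.37% of all genes did. The mural lead rests on 1 sub-cluster: without sub-cluster 3, 34 of whose 42 cells came from KP post-depletion, mural cells led for 4 genes and fibroblasts for 12.

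**Figure D1:**
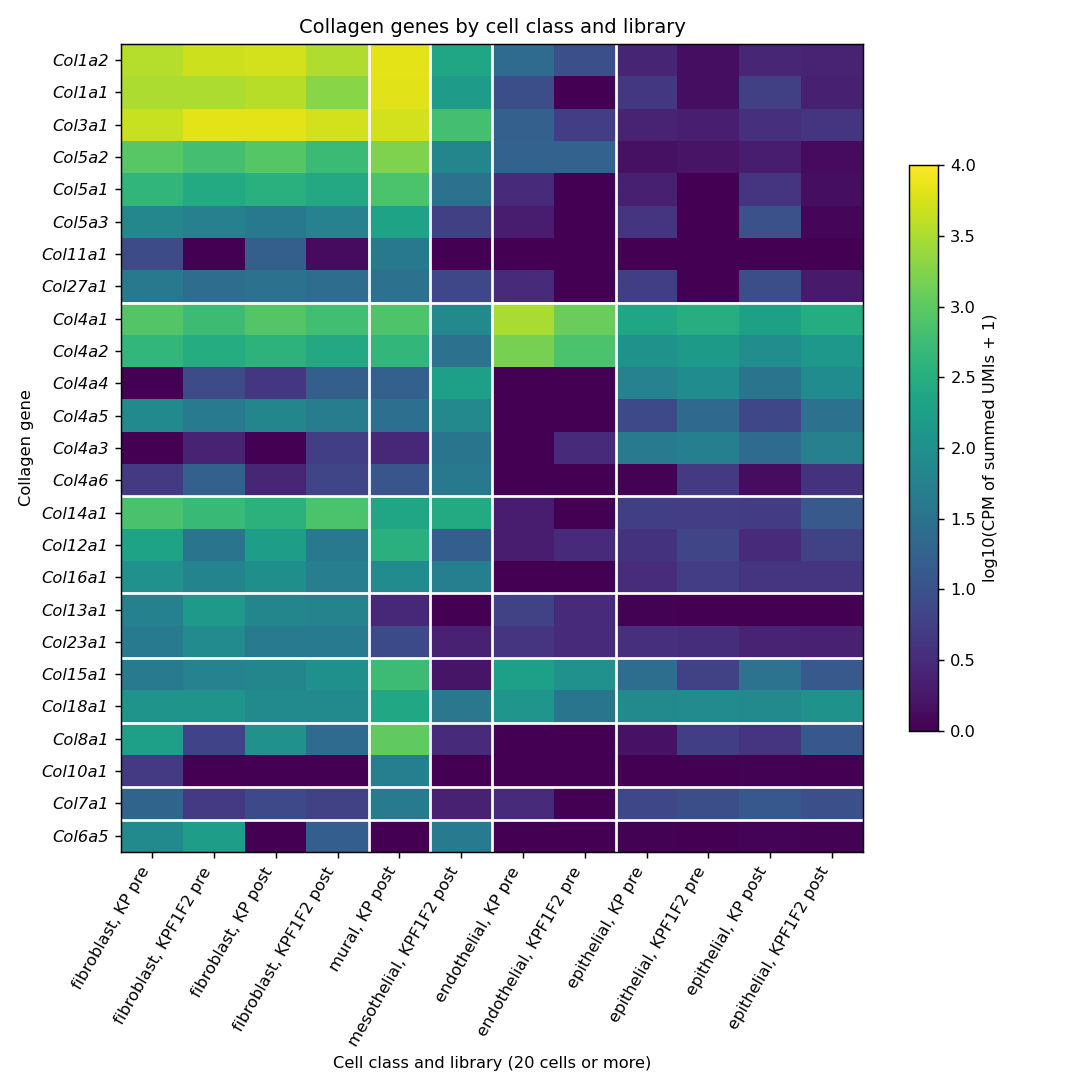
Levels of the 25 collagen genes that reached 20 CPM in a class (rows) in each cell class and library with 20 cells or more (columns), as log10 of CPM plus 1 by colour. Fibrillar collagens are high across fibroblast and mural columns, Col4a1 and Col4a2 are present in all columns with their highest values in endothelial cells, and Col4a3 and Col4a4 stand out in the epithelial and mesothelial columns.

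Col3a1, which encodes the single chain of collagen III, was the most abundant collagen transcript of fibroblasts. Its fibroblast level was 4677 CPM in KP pre-depletion, 6879 in KPF1F2 pre-depletion, 6796 in KP post-depletion and 5248 in KPF1F2 post-depletion. The mural level was 5284 CPM, while mesothelial cells had 647 CPM, and endothelial and epithelial libraries 1.19 to 16 CPM. Col1a2 and Col1a1, the chains of collagen I, had 3320 to 5345 and 1970 to 3715 CPM in fibroblasts, and 6779 and 6504 CPM in mural cells. In UMIs the ratio of Col1a1 to Col1a2 was 0.59 to 0.90 in fibroblasts, 0.96 in mural cells and 0.68 in mesothelial cells. Fibroblasts therefore held fewer Col1a1 than Col1a2 UMIs in all 4 libraries. Col5a2 and Col5a1, chains of collagen V that sits inside collagen I fibres, reached 1713 and 745 CPM in mural cells and 532 to 926 and 262 to 422 CPM in fibroblasts. Their ratio in UMIs, Col5a1 over Col5a2, was 0.38 to 0.49 in fibroblast, mural and mesothelial cells. Col5a3, a rarer chain of collagen V, had 40 to 70.9 CPM in fibroblasts and 211 in mural cells. Col11a1, best known from cartilage, had 40.5 CPM in mural cells and 0 to 15 in fibroblasts. Col27a1 lay between 25.8 and 41.1 CPM in fibroblasts and was 31.7 in mural cells, a difference within counting error.

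Among the fibril-associated collagens Col14a1 led in fibroblasts, with 706 CPM in KP pre-depletion, 500 in KPF1F2 pre-depletion, 370 in KP post-depletion and 747 in KPF1F2 post-depletion. Mesothelial cells had 280 CPM of it and mural cells 227. Macrophages of the pre-depletion libraries carried it as well: 27.7% of KP and 19.0% of KPF1F2 macrophages had a Col14a1 UMI, and at 2000 UMIs a cell 5.54% and 6.53%. Among alveolar macrophages, which were deeper at medians of 19941 and 22623 UMIs against 16561 and 14605, the unthinned shares were 0.786% and 1.34%. Col12a1 was 351 CPM in mural cells and 34.1 to 205 in fibroblasts, with the 2 KP libraries at 205 and 173 and the 2 KPF1F2 libraries at 34.1 and 40. Col16a1 had 50.5 to 105 CPM in fibroblasts, 84.6 in mural and 52.3 in mesothelial cells, against 2.24 to 4.38 CPM in epithelial cells and 0 UMIs in endothelial cells.

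The collagen IV chains fell into different classes. Col4a1 was highest in endothelial cells, with 3148 CPM in KP and 1224 in KPF1F2. Fibroblasts had 561 to 855 CPM, mural cells 802, epithelial cells 189 to 307, and mesothelial cells 75.4. Col4a2 had the same order, with 1491 and 736 CPM in endothelial cells, 448 in mural cells, 263 to 440 in fibroblasts, 90.9 to 148 in epithelial cells and 31.3 in mesothelial cells. The ratio of Col4a1 to Col4a2 UMIs stayed between 1.66 and 2.41 over all 12 class-libraries, whatever the level. An opposite-strand feature, Gm15418, covers the 3′ end of Col4a1, and the strand setting of the counts is not given in the sources used here.

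Col4a4 was highest in mesothelial cells at 179 CPM, and epithelial cells followed with 57.5, 87.2, 34.1 and 88.3 CPM in KP pre-depletion, KPF1F2 pre-depletion, KP post-depletion and KPF1F2 post-depletion. Col4a3, its head-to-head partner, was highest in epithelial cells, with 41.8, 52.6, 24.3 and 54.3 CPM in the same order, and had 35.3 CPM in mesothelial cells. Neither exceeded 16 CPM in fibroblast, mural or endothelial cells. The ratio of Col4a3 to Col4a4 UMIs was 0.60 to 0.73 in the 4 epithelial libraries and 0.20 in mesothelial cells. In KPF1F2 post-depletion, 647 epithelial cells had UMIs of both, 134 of Col4a3 alone, 376 of Col4a4 alone and 787 of neither. Col4a5 was 75.4 CPM in mesothelial cells, 42.5 to 82.1 in fibroblasts and 28.2 in mural cells, and endothelial cells had 0 UMIs of it. Col4a6 was 40.8 CPM in mesothelial cells and at most 15.9 in any other class-library. By class mean, mesothelial cells had the highest Col4a4, Col4a5 and Col4a6 and the lowest Col4a1 and Col4a2.

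**Figure D2:**
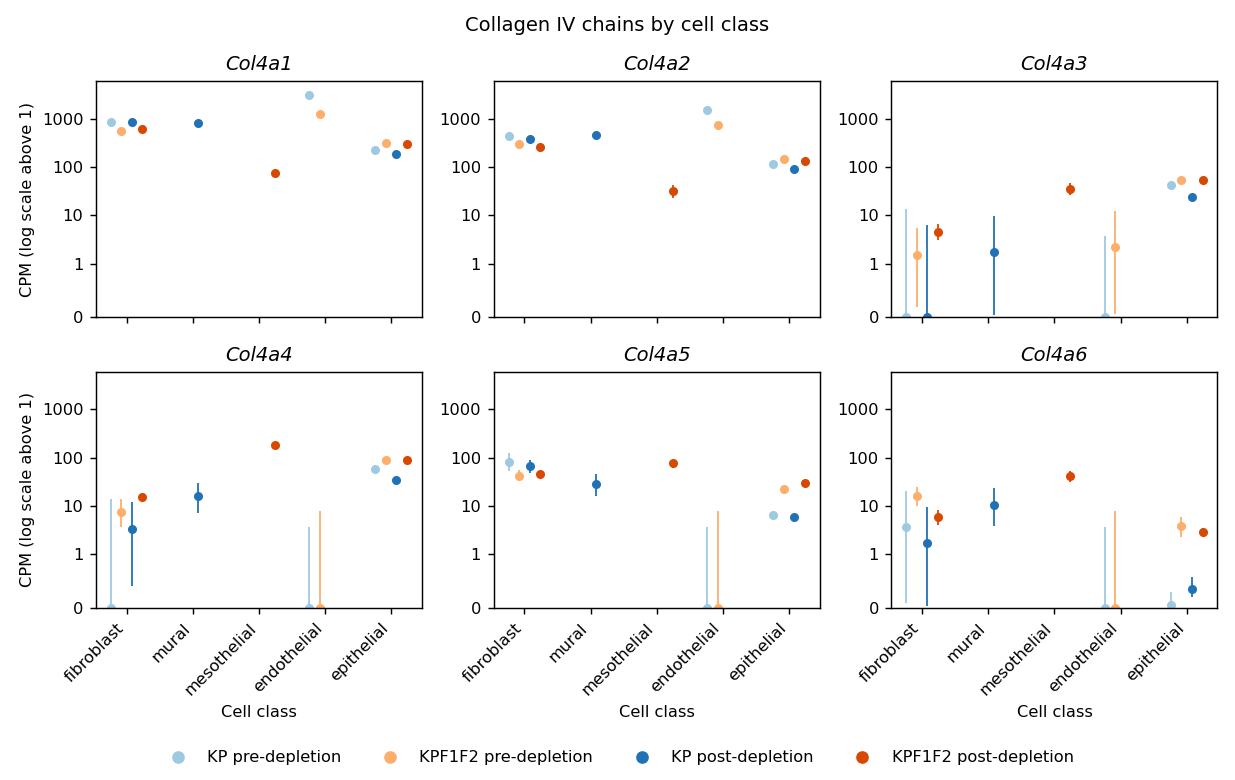
Levels of the 6 collagen IV chains (CPM, linear below 1 and logarithmic above) by cell class, with 1 point per library and bars for the 95% exact Poisson interval. Col4a1 and Col4a2 peak in the endothelial points at 736 to 3148 CPM, while Col4a3 and Col4a4 sit at 24.3 to 88.3 CPM in epithelial cells and 35.3 and 179 CPM in mesothelial cells.

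The multiplexins Col15a1 and Col18a1, collagens of basement membrane zones, were shared among several classes. Col15a1 was 552 CPM in mural cells, 180 and 105 in KP and KPF1F2 endothelial cells, and 44.8 to 99.1 in fibroblasts, with 1 UMI in mesothelial cells. Col18a1, whose C-terminal fragment is endostatin, was 243 CPM in mural cells, 120 and 34.4 in KP and KPF1F2 endothelial cells, 77.9 to 116 in fibroblasts and 77.9 to 114 in epithelial cells. The fibroblast and epithelial ranges of Col18a1 overlapped. Slc19a1 covers the 3′ end of Col18a1 on the other strand, so its UMIs carry the same uncertainty as those of Col4a1.

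Of the 3 short-chain collagens, Col8a1 and Col10a1 were highest in mural cells, where Col8a2 had 0 UMIs. Col8a1, a collagen of vessel walls, had 1066 CPM in mural cells, against 179, 5.31, 105 and 23.9 CPM in fibroblasts of KP pre-depletion, KPF1F2 pre-depletion, KP post-depletion and KPF1F2 post-depletion, and 0 in endothelial cells. Col10a1, known from hypertrophic cartilage, had 52.9 CPM in mural cells from 30 UMIs, and Nt5dc1 overlaps it on the other strand. Col7a1, the anchoring fibril collagen, had 44.1 CPM in mural cells and 6.25 to 11.4 in epithelial cells. The transmembrane collagens Col13a1 and Col23a1 were fibroblast transcripts, at 56 to 144 and 41.6 to 83.5 CPM, while mesothelial cells had 0 and 1.36 CPM. The other transmembrane members, Col17a1 and Col25a1, had 21 and 2 UMIs in all kept cells. Col6a5 was unevenly spread, at 82.1, 173, 0 and 14.9 CPM in the fibroblast libraries and 44.2 in mesothelial cells. These levels rest on 1 of 22 KP pre-depletion, 7 of 92 KPF1F2 pre-depletion, 0 of 61 KP post-depletion and 19 of 415 KPF1F2 post-depletion fibroblasts with a UMI.

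Fibroblasts, mural and mesothelial cells were clustered again. Col3a1 ranged from 2669 to 7101 CPM over the fibroblast sub-clusters 0, 1, 2, 4, 6, 7 and 8, all libraries summed. Sub-clusters 0 and 1, with 86 and 57 cells, express Inmt, Mfap4, Npnt and Tcf21, genes known from alveolar fibroblasts. They held Col13a1 at 211 and 352 CPM and Col23a1 at 67.3 and 297 CPM. Sub-clusters 4 and 6, with 77 and 167 cells led by Pi16, Dcn and Clec3b, genes known from adventitial fibroblasts, held Col14a1 at 1598 and 1016 CPM and no Col13a1 UMI. Col6a5 was 176 CPM in sub-cluster 4 and 25.4 in sub-cluster 6. Sub-cluster 2 (109 cells), with high Eln and some Acta2, had both Col12a1 at 174 CPM and Col15a1 at 184 CPM. In KPF1F2 post-depletion fibroblasts, 58 of 415 cells had a Col13a1 UMI and none of Col14a1, 253 the reverse, 32 both and 72 neither. In KPF1F2 pre-depletion these counts were 27, 45, 9 and 11 of 92.

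The mural class held 2 kinds of cell. Sub-cluster 3 (42 cells) was led by collagens, Rgs5, Cthrc1 and Tnc, and sub-cluster 5 (20 cells) by the smooth muscle genes Acta2 and Myh11. In sub-cluster 3, Rgs5 was 905 CPM over all libraries but 214 CPM in the 34 KP post-depletion cells. Those 34 cells are 85% of the mural cells behind the class levels. They had 2721 CPM of Acta2 and 67 of Myh11, beside 1072 of Cthrc1 and 645 of Dcn. Whether they are pericytes, smooth muscle or fibroblasts was not tested. Over all libraries, Col8a1 was 923 CPM in sub-cluster 3 and 383 in sub-cluster 5, but Col1a1 was 6179 against 490, Col12a1 297 against 31.2, and Col10a1 115 against 0. Col18a1 went the other way, with 248 CPM in sub-cluster 3 and 686 in sub-cluster 5. Cthrc1, a gene known from matrix-producing fibroblasts, was 1003 CPM in sub-cluster 3 and 62.9 in sub-cluster 2, and Pdgfra, a fibroblast marker, was 30.3 and 483 CPM. The mesothelial sub-clusters 9 (58 cells) and 10 (37 cells) both held Col4a4, at 232 and 72.7 CPM, while Col6a5 was 0 in the former and 112 CPM in the latter.

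**Figure D3:**
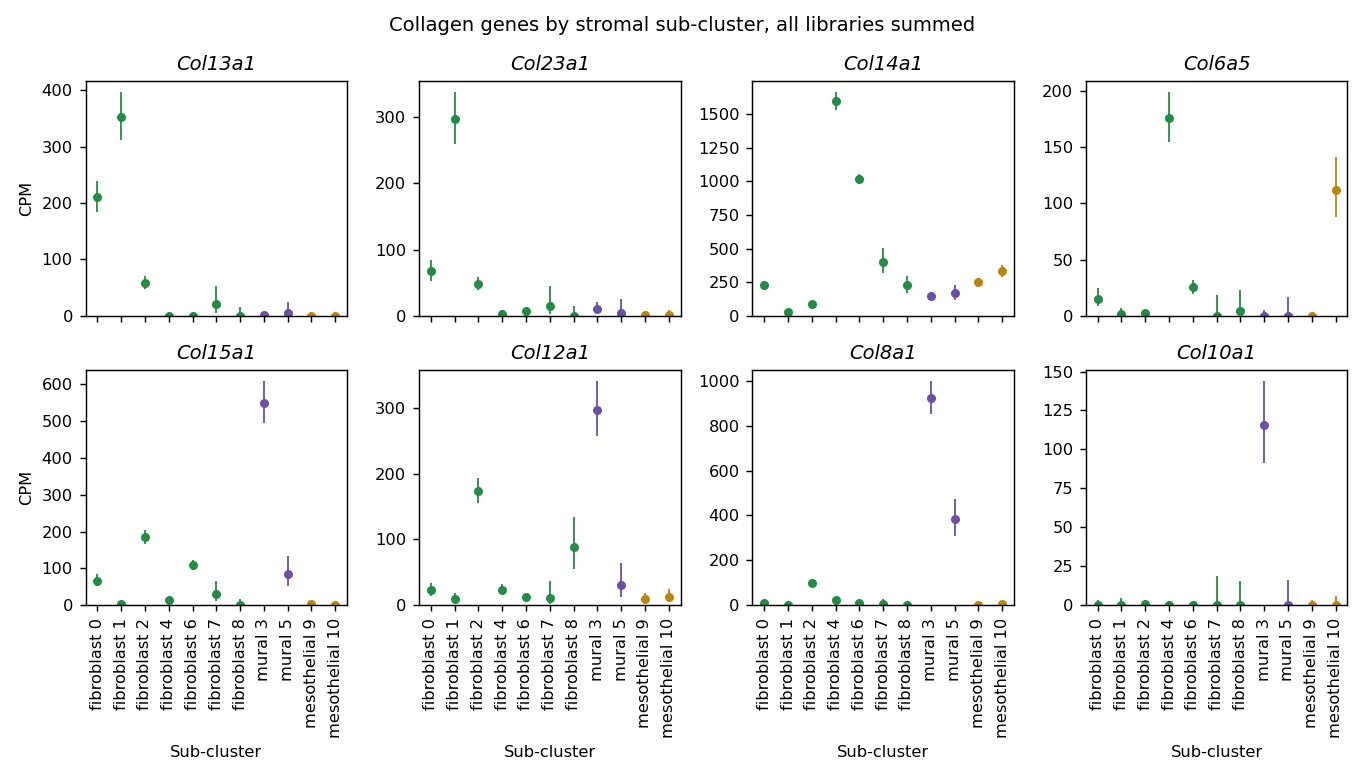
Levels (CPM, all libraries summed, bars for 95% exact Poisson intervals) of Col13a1, Col23a1, Col14a1, Col6a5, Col15a1, Col12a1, Col8a1 and Col10a1 in the 11 stromal sub-clusters with 20 cells or more. Col13a1 and Col23a1 peak in sub-clusters 0 and 1, Col14a1 in 4 and 6, and Col8a1, Col12a1, Col15a1 and Col10a1 in sub-cluster 3.

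In epithelial cells KPF1F2 tumours carried more Col4a3, Col4a4, Col4a5, Col14a1 and Col8a1 and less Col15a1 than KP tumours after depletion, while the major chains Col4a1 and Col4a2 differed by under 2-fold. Genes averaging 5 CPM or more over both genotypes were compared, and called at 2-fold on a log2 scale with 1 CPM added to each side. Of the 41 genes, 10 were compared in at least 1 state, 23 lay below 5 CPM and 8 had no UMI in epithelial cells. After depletion 5 of 10 were higher in KPF1F2 (5.06% of all 9670 genes compared) and 1 was lower (5.13%). Before depletion 8 were compared, of which Col4a5 was higher (5.76% of all 9719 genes) and Col15a1 lower (4.2%). Both calls were the same in both states, where 3.26% of all genes were higher and 2.9% lower. The median log2 difference over the members compared was 0.36 before and 0.89 after depletion, beside 0.08 and 0.06 over all genes. Before depletion 560 of all genes were higher and 408 lower, a split that TMM scaling turned to 438 and 513, with the median over all genes at -0.05. Between libraries of 1 genotype, post over pre, 1 of 10 members differed 2-fold in KP (Col5a3; 1.35% of all genes) and 3 of 11 in KPF1F2 (Col15a1, Col14a1 and Col8a1; 2.84%), so these 4 genes moved with the library within a genotype as well.

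**Figure D4:**
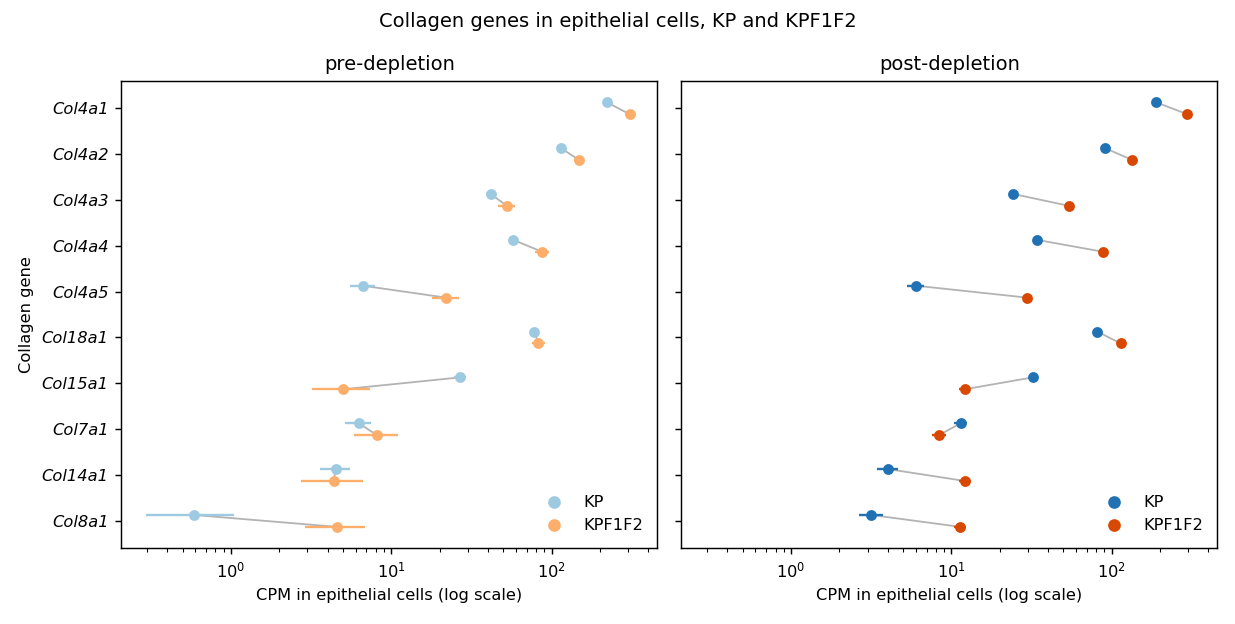
Levels in epithelial cells (CPM, logarithmic axis, bars for 95% exact Poisson intervals) of the 10 collagen genes compared, in KP and KPF1F2 before and after depletion. Col4a5 lies at 21.9 and 29.6 CPM in KPF1F2 against 6.62 and 5.996 in KP, and Col15a1 at 4.98 and 12.1 against 26.9 and 32.2.

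Col4a5 showed the largest difference of the 5 basement membrane chains compared. It had 6.62 CPM in KP pre-depletion and 5.996 in KP post-depletion, against 21.9 and 29.6 in KPF1F2. After depletion the log2 difference was 2.13, a ratio of 4.93 (4.32 to 5.66), from 1396 UMIs in 604 of 1944 KPF1F2 cells and 259 UMIs in 209 of 2647 KP cells. Before depletion it was 1.59. At 2000 UMIs a cell 5.22% of KPF1F2 and 1.19% of KP post-depletion cells had a UMI (31.1% and 7.90% without thinning). Of macrophages, which were read in the pre-depletion libraries only, 0% had a Col4a5 UMI at that depth. Its neighbour Col4a6, below the 5 CPM minimum and named after its values were seen, had 1 and 15 UMIs in KP and 19 and 137 in KPF1F2. In KPF1F2 post-depletion 82 cells had UMIs of both and 12 of Col4a6 alone.

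Col4a4 and Col4a3 differed together. After depletion Col4a4 had 34.1 CPM in KP cells and 88.3 in KPF1F2 cells, which is a ratio of 2.59 (2.44 to 2.75). Col4a3 was 24.3 and 54.3 CPM, a ratio of 2.24 (2.08 to 2.40). The log2 differences were 1.35 and 1.13. Before depletion the KP levels were higher, 57.5 and 41.8 CPM, and the log2 differences were 0.59 and 0.32. Part of the KP pre-depletion level came from cluster 22, an alveolar type 1-like cluster led by Ager and Rtkn2 that held 4.85% of those cells and 43.5% of their Col4a3 UMIs. Outside cluster 22 the differences were 0.73 and 1.46 for Col4a4 and 0.75 and 1.24 for Col4a3, before and after depletion. Within cluster 22 after depletion (54 KP and 27 KPF1F2 cells) they were 0.93 and 1.12, and before depletion (33 and 12 cells) -0.19 and -0.89. At 2000 UMIs a cell, 18.3% of KPF1F2 and 9.34% of KP post-depletion cells had a Col4a4 UMI (52.6% and 29.1% without thinning). In macrophages of the pre-depletion libraries the thinned share was 0.198% or less. Col4a1 went from 189 CPM in KP to 296 in KPF1F2 after depletion (log2 0.65) and from 221 to 307 before (0.47), and Col4a2 from 90.9 to 135 (0.56) and from 114 to 148 (0.37). Over all epithelial cells the 6 collagen IV chains were therefore higher in KPF1F2 in both states, and of the 5 compared Col4a5 alone passed 2-fold in both.

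Col15a1 was the member lower in KPF1F2. It had 26.9 and 32.2 CPM in KP before and after depletion and 4.98 and 12.1 in KPF1F2. The log2 differences were -2.22 and -1.34, and KP was 5.41-fold (3.62 to 8.44) and 2.66-fold (2.41 to 2.94) higher. At 2000 UMIs a cell 5.02% of KP and 1.80% of KPF1F2 post-depletion cells had a UMI (15.4% and 4.73% without thinning). In the pre-depletion libraries the thinned shares were 0.990 to 2.89% in macrophages, alveolar macrophages and neutrophils and 0 to 0.532% in T and B cells. Alveolar macrophages, with median depths of 19941 and 22623 UMIs, reached 15.04% and 17.3% without thinning. The KP share lay above all of these leukocyte classes, and the KPF1F2 share within the myeloid range. Col18a1, the other multiplexin, had 77.9 and 81.3 CPM in KP and 82.8 and 114 in KPF1F2, with log2 differences of 0.09 and 0.48.

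Col8a1 and Col14a1 had few UMIs and few positive cells. Col8a1 had 0.588 and 3.17 CPM in KP and 4.58 and 11.4 in KPF1F2, with a log2 difference of 1.57 after depletion. Its 536 UMIs in KPF1F2 post-depletion lay in 127 cells, and the 137 in KP post-depletion in 79. The summed mural markers were 6.42 CPM in those KPF1F2 cells, against 5.76 over all epithelial cells of the library, but 275 CPM in the KP cells against 39.6. The part of mural RNA in the KP level was not tested. Col8a1 lay mostly in cluster 23, and the direction turned, to -0.017, among cells without a UMI of Dcn, Pdgfrb, Msln or Pecam1; Msln is among the genes that lead cluster 23. Col14a1 had 4.49 and 4.03 CPM in KP and 4.38 and 12.2 in KPF1F2, so only KPF1F2 post-depletion stood apart, with a log2 difference of 1.39. Subtracting 5% of the UMIs with the profile of the other cells of each library, as for free RNA, took away all Col14a1 in both post-depletion libraries. The log2 difference of 0 that it left, which ended the call, is 0 against 0. It therefore cannot say whether free RNA made the difference. Its 576 UMIs there lay in 79 of 1944 cells, and 20 cells held 74.0% of them. Those 79 cells had 19.2 CPM of the 12 summed fibroblast markers, close to the 17.8 over all epithelial cells, with 6 Dcn and 0 Pdgfra UMIs. Fibroblast markers differed between the libraries: they summed to 74.1, 11.9, 104 and 17.8 CPM in epithelial cells of KP pre-depletion, KPF1F2 pre-depletion, KP post-depletion and KPF1F2 post-depletion, mostly as Dcn, with 2, 3, 0 and 0 of the 12 at 0. Their part in the collagen levels was not tested.

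Col5a3 and Col27a1 did not reach the 5 CPM minimum and are named after their values were seen. Col5a3 had 58 UMIs in 6 cells of KP pre-depletion and 384 in 67 cells of KP post-depletion, against 0 and 9 UMIs in KPF1F2. Before depletion the KP level of Col5a3 was 5.19-fold above the limit of 3 counts in KPF1F2. This figure takes UMIs as independent. With 6 of 680 KP cells positive and 192 KPF1F2 cells read, it is not a lower bound for the difference. Col27a1 had 85 and 345 UMIs in KP and 0 and 45 in KPF1F2. Its KP level before depletion was 7.60-fold above that limit, a figure that takes UMIs as independent in the same way. Cluster 7 held 97.4% of the KP post-depletion Col5a3 UMIs.

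The epithelial cells of the genotypes fell into different clusters. Clusters 1, 5 and 7 held 71.2% and 84.2% of KP epithelial cells before and after depletion, against 1.56% and 1.44% in KPF1F2, where clusters 13, 23 and 27 held 84.4% and 86.8% (4.71% and 2.30% in KP). Cluster 27, led by S100g, Sftpd, Ager and Mme, had 177 CPM of Col4a4, 110 of Col4a3, 45.2 of Col4a5 and 448 of Col4a1. With 46.6% of KPF1F2 post-depletion epithelial cells it held 80.01% of their Col4a4, 80.7% of their Col4a3 and 61.3% of their Col4a5 UMIs. Cluster 23, led by Mcpt1, Krt7 and Msln, had only 13.6 CPM of Col4a4 and 7.17 of Col4a3 but 259 of Col18a1. With 21.6% of those cells it held 86.7% of the Col18a1, 92.3% of the Col15a1 and 99.1% of the Col8a1 UMIs. Shares of UMIs also depend on the depth of a cluster's cells, which its share of cells leaves out. Cluster 13, rich in Sftpc and Sftpd, had 41 CPM of Col4a4, 17.4 of Col4a3 and 0.175 of Col15a1. In KPF1F2 post-depletion, cluster 27 thus held most Col4a3 and Col4a4 UMIs, and cluster 23 most Col18a1, Col15a1 and Col8a1 UMIs. Col4a5 was less confined, with the UMIs beyond those 61.3% in other epithelial clusters.

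Among the mostly KP clusters the spread was smaller. Cluster 7, led by Gzme, Mcpt1 and Krt7, had 44.7 CPM of Col15a1, 17.8 of Col7a1 and 15.9 of Col5a3, but 14.4 of Col4a4 and 8.67 of Col4a3. Clusters 1 and 5, rich in Sftpc, had 53.2 and 52.9 CPM of Col4a4 and 30.8 and 38.9 of Col4a3. Clusters 7 and 23, which share Mcpt1, Krt7 and S100a14 among their leading genes, were the epithelial clusters with the lowest Col4a3 and Col4a4 apart from the airway clusters 26 and 29. The alveolar type 1-like cluster 22 had 426 CPM of Col4a3, 422 of Col4a4 and 75 of Col4a5, the highest Col4a3 and Col4a4 of the epithelial clusters.

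**Figure D5:**
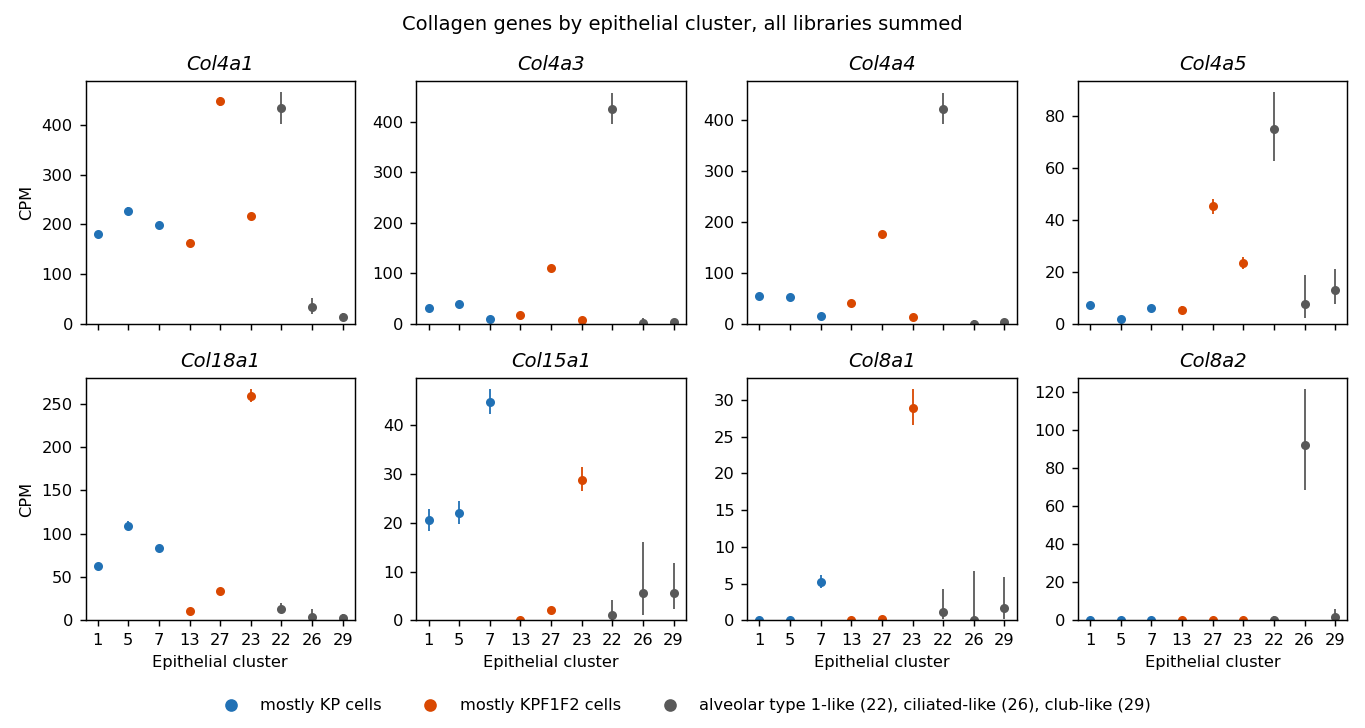
Levels (CPM, all libraries summed, bars for 95% exact Poisson intervals) of Col4a1, Col4a3, Col4a4, Col4a5, Col18a1, Col15a1, Col8a1 and Col8a2 in epithelial clusters 1, 5 and 7 (mostly KP), 13, 27 and 23 (mostly KPF1F2) and 22, 26 and 29 (both). Cluster 22 has 426 CPM of Col4a3, cluster 27 has 110, and clusters 7 and 23 have 8.67 and 7.17.

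CreERT2 RNA marks cells that underwent Flp recombination, although a cell without a UMI may still carry the allele. Among cells with a CRE-ERT2 UMI (251 KP and 51 KPF1F2 before depletion, 836 and 584 after), the log2 differences were 2.06 and 2.47 for Col4a5, 0.98 and 1.31 for Col4a4, 0.91 and 1.03 for Col4a3, 2.69 and 1.97 for Col8a1, and 0.86 and 1.01 for Col18a1. Col15a1 was at -1.52 and -0.68 there, which ends its call after depletion. Among cells without such a UMI (429 and 141 before depletion, 1811 and 1360 after) Col4a5 was at 1.02 and 1.79, Col4a4 at 0.00 and 1.38, and Col4a3 at -0.39 and 1.21. Col18a1 was at -1.04 and -0.74 and Col15a1 at -3.15 and -2.70 there. The Col18a1 difference therefore had opposite signs in cells with and without the UMI, as had that of Col4a3 before depletion.

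In fibroblasts after depletion (61 KP and 415 KPF1F2 cells) 24 members averaged 5 CPM or more. In KPF1F2, 3 were higher (6.04% of all 9947 genes) and 4 were lower (8.56%). Col14a1 was higher, with 370 and 747 CPM and a log2 difference of 1.01, and Col12a1 and Col8a1 were lower, from 173 to 40 and from 105 to 23.9 CPM, at -2.09 each. The other calls rest on few UMIs: Col4a4 (2 in KP and 96 in KPF1F2) and Col6a5 (0 and 95) were higher, and Col11a1 (9 and 2) and Col24a1 (6 and 22, from fewer KP cells) were lower, the last with an interval of the ratio, 0.136 to 1.04, that includes equality. With a minimum of 20 CPM, 18 were compared, 1 was higher (4.53% of all 6044 genes) and 2 were lower (6.22%). The chains of collagen I and V were lower by under 2-fold, as with Col1a1 at 3715 and 1970 CPM. The median over the 24 was -0.38, beside -0.14 over all genes. The genotypes drew on different sub-clusters: 34 of the 61 KP cells were in sub-cluster 2 and 12 in sub-cluster 11, whereas 138 and 69 of the 415 KPF1F2 cells were in sub-clusters 6 and 4, where KP had none. Within sub-cluster 2 (34 KP and 56 KPF1F2 cells) Col14a1 turned to -1.15, Col12a1 was at -0.83 and Col8a1 at -0.49. Col15a1 was 55.9 CPM in KP and 258 in KPF1F2 there, a log2 difference of 2.19, and Col5a3 50.6 and 178, at 1.79.

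In endothelial cells, present before depletion (128 KP and 82 KPF1F2 cells, all of cluster 3), 7 members averaged 5 CPM or more, of which 5 were lower in KPF1F2 (9.21% of all 9754 genes) and 0 higher (6.76%). With a minimum of 20 CPM, 4 were compared, 3 were lower (4.53% of all 6330 genes) and 0 higher (4.66%). Col4a1 went from 3148 to 1224 CPM (log2 -1.36), Col4a2 from 1491 to 736 (-1.02), Col18a1 from 120 to 34.4 (-1.77) and Col15a1 from 180 to 105 (-0.76). Fibrillar Col1a2 and Col3a1 were also past 2-fold, from 24 and 16 UMIs in KP and 4 and 2 in KPF1F2, but the intervals of both ratios include equality. The median of the 7 was -1.36, beside 0.01 over all genes. At 2000 UMIs a cell 83.2% of KP and 64.7% of KPF1F2 endothelial cells had a Col4a1 UMI (94.5% and 82.9% without thinning), with 0 to 0.990% in macrophages and neutrophils. KPF1F2 endothelial cells had a lower median depth, 4519.5 against 6291.5 UMIs, and a higher median share of mitochondrial UMIs, 5.87% against 4.91%. The part of either was not tested, and this pair includes the library whose title carries the other number.

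Genes that process, bind or degrade collagen were read from lists. Of 28 collagen-processing genes in the features (hydroxylases, chaperones, cross-linking enzymes and procollagen proteases), 23 reached 20 CPM in a class, and the highest mean was mural for 13 (20.3% of all genes), fibroblast for 7 (12.6%), mesothelial for 2 (20.2%), endothelial for 1 (30.3%) and epithelial for 0 (16.6%). Serpinh1, the collagen chaperone, was 1200 CPM in mural cells and 691 to 1586 in fibroblasts, and 87 to 132 in epithelial cells. Of 14 of them compared in epithelial cells 0 passed 2-fold in both states in either direction, with medians of 0.13 and -0.05. Mia3, which helps procollagen leave the endoplasmic reticulum, had 0.64 and 0.77, with 23.1 CPM in KP and 40.2 in KPF1F2 after depletion. Of 5 collagen receptors compared (of 9), 0 passed, with Itga2, an integrin chain that binds collagen, at 57 and 45.1 CPM after depletion. Of 5 collagen-degrading proteases and inhibitors compared (of 9), 2 were lower in KPF1F2 in both states: Mmp13, a collagenase, at -3.74 and -3.78 (25.6 CPM in KP and 0.932 in KPF1F2 after depletion), and Timp1, an inhibitor of such proteases, at -1.38 and -3.16 (441 and 48.6 CPM). Of 10 other basement membrane genes compared (of 16) 0 passed, with the laminin chain Lamb1 at -0.62 and -0.85. Of all genes, 3.26% were higher and 2.9% lower by 2-fold in both states.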

How the data were processed

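The deposited files hold whole-number UMI counts per gene and barcode, which per the file headers the authors made in Cell Ranger 6.0.0. The submitters' processing notes name mm10. The counting settings, the annotation and the strand handling were not stated in these sources. Barcodes were kept from 1000 UMIs and 500 genes upwards where mitochondrial UMIs were 20% or less. A doublet caller, scrublet, marked 0.02761 to 0.1559% of barcodes, under 0.5% and so taken as failed, and the barcodes with the highest doublet scores were removed at 0.8% per 1000 barcodes (90 to 247 a library). Collagen genes were left out of the 2000 variable genes. Clustering used 30 components, 15 neighbours and Leiden resolution 1, with no batch correction, and stromal cells were clustered again.

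UMIs were summed per class and library and given as CPM, with 1 CPM added for log2 differences, exact Poisson, conditional binomial or Clopper-Pearson 95% intervals, and a floor of 3 counts where a library was at 0. Class means took libraries with 20 cells or more, and genotype pairs of a whole class 50 or more. Genotype differences within a cluster or sub-cluster also came from fewer cells. Cells were thinned to 2000 UMIs to compare shares, which left out 8 to 221 epithelial cells a library. Levels are given by library for members with a class mean of 20 CPM or more, the genotype comparison for members with a mean of 5 CPM or more over the pair of libraries, and up to 4 genes each way for the other lists. The members and lists were chosen with earlier results of these data known. The code for log2 differences, intervals and thinning draws was tested on simulated counts that had no spread between cells. Filters, doublet removal, clustering, class names and the subtraction of free RNA were not tested in this way. Gene positions come from GENCODE vM21 (GRCm38). Python 3.11.15, scanpy 1.11.5, scipy 1.17.1 and R 4.3.3 were used, with edgeR 4.0.16 and DESeq2 1.42.0 for scaling factors only. The values of 1 gene of the other lists are not reported here.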

Additional observations from a re-analysis of the deposited data

Results flagged for a closer look

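Col8a2, a short-chain collagen, had opposite differences before and after depletion in epithelial cells. It was higher in KPF1F2 before depletion, with 18 UMIs against 10 in KP and a log2 difference of 1.58, and lower after it, with 6 UMIs against 24 and -0.46. The difference between the states was not tested. Cluster 26, led by genes of ciliated cells and with 7, 5, 23 and 3 cells in KP pre-depletion, KPF1F2 pre-depletion, KP post-depletion and KPF1F2 post-depletion, had 91.9 CPM of Col8a2, and no other epithelial cluster exceeded 1.63 CPM.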

How the results depend on the processing

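Of the alternatives computed for the counts, 253 values stayed within 1.5 times of the main count, 33 moved and 0 reversed, and of the single-gene and class values 491 kept theirs, 124 moved and 2 reversed. The 5 alternatives that add cluster 18, leave out clusters 22, 26 and 29, use Pdgfra, Pdgfrb, Lum and Pecam1, leave out sub-cluster 3, or set 20 CPM for fibroblast and endothelial pairs were chosen after seeing the data. Without sub-cluster 3, fibroblasts led for 12 members and mural cells for 4. After depletion 2 members were lower at resolution 0.5, with equal weight per cell, without a UMI of Dcn, Pdgfrb, Msln or Pecam1, and with cluster 18 added. Among cells with a CRE-ERT2 UMI, 2 members were higher before depletion, 2 higher in both states and 0 lower in both. With 5 CPM added, 257 of all genes were lower before depletion. With a mean of 20 CPM or more, 0 members were higher and 0 lower before depletion and in both states, and 2 were higher after depletion, while of all genes 283 were higher and 168 lower before, 266 and 215 after, and 165 and 108 in both. With no minimum, 4 members were higher and 5 lower before depletion, 5 lower after, and 3 higher and 5 lower in both, while of all genes 951 were higher and 747 lower before, 886 lower after and 478 lower in both. With 20 CPM or more, 1 member was higher and 2 lower in fibroblasts (3 and 4 at 5 CPM), and 3 were lower in endothelial cells (5 at 5 CPM). Without a UMI of Dcn, Pdgfrb, Msln or Pecam1, Col8a1 turned to -0.60 before and -0.017 after depletion. Apart from the change of minimum and the left-out cells, which alter the genes or cells tested, the cause was not tested.

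No paired analysis was possible because each group holds 1 library. For the same reason no replicate could be left out and no difference between libraries can be told apart from one between mice or preparations. Fibroblast, mural and mesothelial levels rest on 22 to 415, 40 and 83 cells a library, so members below a few CPM in those classes could not be compared.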

Other observations

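Cluster 18 was left without a name. It held 724 cells, 610 of them from KP post-depletion, 110 from KP pre-depletion, 4 from KPF1F2 post-depletion and 0 from KPF1F2 pre-depletion, with a low median depth and with all 10 epithelial markers above the other cells. Over all libraries it had 75.4 CPM of Col15a1, 26 of Col27a1 and 28.5 of Col7a1, above each of the epithelial clusters described here. Its levels of Col4a4 and Col4a3 were 108 and 67 CPM, and that of Col4a1 was 286 CPM.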
